A study of Mus musculus with 12 samples.

Results

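The miR-17 to miR-92a cluster is a set of microRNAs (miRNAs) cut from 1 primary transcript. The 9 mature miRNAs described here were chosen by name from the 1042 miRNAs of the table: mmu-miR-17-5p, mmu-miR-17-3p, mmu-miR-18a-5p, mmu-miR-18a-3p, mmu-miR-19a-3p, mmu-miR-20a-5p, mmu-miR-20a-3p, mmu-miR-19b-3p and mmu-miR-92a-3p, written below without the mouse prefix. The rule uses names alone and no measured value, and all 9 passed the filter on low reads that left 732 miRNAs for testing. Their levels were compared between mouse embryonic fibroblasts (MEFs), embryonic stem cells (ESCs) and pluripotent cells made from MEFs.

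Small RNA of 18 to 30 nt was sequenced from 12 libraries of 5 cell types. ESCs were the E14 line of the 129/ola strain (3 libraries), and MEFs came from C57B6/129SvJae F1 mice (3 libraries). Cells reprogrammed from MEFs of that F1 background had 2 libraries each: NT-ESCs, for which the nucleus of a MEF was placed in an oocyte, iPSCs, for which MEFs were infected with a dox-inducible virus for the factors Oct4, Sox2, Klf4 and c-Myc, and NT-iPSCs, for which the donor nucleus came from an iPSC. These 6 libraries are called reprogrammed below. No group received a treatment beyond its derivation, and ages were not stated. Each type was represented by 1 line, and its replicates were separate RNA batches, so p-values measure only the spread between such batches. ESCs differ from all other groups in strain and from the reprogrammed lines also in origin, and these cannot be told apart from the cell state. In the paper's sequencing summary, every reprogrammed library had more total reads and a lower percentage of reads without an insert than every MEF and ESC library. The labels name no batch, so a difference between these sets of libraries cannot be told apart from reprogramming.

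The transcript of this cluster folds into consecutive hairpins, and Drosha and Dicer cut each hairpin into a 5p arm and a 3p arm, of which usually 1 is loaded into Argonaute as the guide strand. A guide recognises messenger RNAs mainly through its seed, bases 2 to 8. The cluster is known as an oncogene that is switched on by Myc and E2F factors and targets, among others, Bim and the cell cycle inhibitor p21, and it is active in dividing cells, embryonic stem cells included.

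The 6 hairpins lay within 836 bases of chromosome 14, plus strand, of mouse build GRCm38, in the order miR-17, miR-18a, miR-19a, miR-20a, miR-19b-1 and miR-92a-1. All 6 were inside 1 exon, chr14:115043271-115046727, of the noncoding host gene Mir17hg (GENCODE M21). miR-19b-3p and miR-92a-3p have a second, identical copy on chromosome X, minus strand, in the related miR-106a to miR-363 cluster (chr X 52741983 to 52742066 and 52741838 to 52741928), so their reads cannot be assigned to a locus. Positions are those of the reference, since the deposited table gives names only and the submitters' processing notes name build mm8.

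The mature sequences below, from RefSeq (GRCm38.p6), are shown with the seed in capitals because the members fall into families by seed, and the results divided along some of these families. The first 3 are 5p arms with the seed AAAGUGC or the closely related AAGGUGC, and the next 2 share GUGCAAA.
miR-17-5p: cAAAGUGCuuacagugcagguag
miR-20a-5p: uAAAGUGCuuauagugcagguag
miR-18a-5p: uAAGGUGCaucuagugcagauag
miR-19a-3p: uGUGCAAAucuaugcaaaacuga
miR-19b-3p: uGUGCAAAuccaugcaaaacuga
miR-92a-3p: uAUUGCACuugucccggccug
miR-17-3p: aCUGCAGUgagggcacuuguag
miR-18a-3p: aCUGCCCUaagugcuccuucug
miR-20a-3p: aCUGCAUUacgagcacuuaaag
Counted from 1 at the 5′ end, miR-20a-5p differed from miR-17-5p at 2 of 23 bases (C1U and C12U), neither in the seed, and miR-19b-3p differed from miR-19a-3p at 1 of 23 (U11C). miR-18a-5p matched miR-17-5p at 17 of 23 positions, with A4G inside the seed.

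The hairpins at both ends of the cluster are printed to show how the arms sit, with the mature arms in capitals, the 5p arm first. The miR-17 hairpin (chr14:115043671-115043754) gives miR-17-5p and miR-17-3p, and the miR-92a-1 hairpin (chr14:115044427-115044506) gives miR-92a-1-5p and miR-92a-3p.
miR-17 hairpin: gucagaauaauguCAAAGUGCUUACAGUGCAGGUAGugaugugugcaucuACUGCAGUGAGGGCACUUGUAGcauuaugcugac
miR-92a-1 hairpin: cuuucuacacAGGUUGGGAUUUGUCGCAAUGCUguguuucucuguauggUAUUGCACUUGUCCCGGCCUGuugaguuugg

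The deposited values were normalized with size factors and variance stabilized (VST, log2 scale). Whole reads were recovered from the VST, and a library held 4863365 to 8608689 of them on miRNAs, fewest in ESCs and most in MEFs. Levels are given per 1000000 miRNA reads of a library (RPM), a scale on which 3 reads stand for 0.348 to 0.617. That floor covers counting error only, and the chi-square per degree of freedom between replicates, 46.4 to 350, was far above that of counting error. The summed level of 9 pluripotency miRNAs (from the miR-290 cluster and the miR-302 to miR-367 cluster) was 0.745 to 8.83 RPM in MEFs, where 3 of them had 0 reads, and 67849 to 130968 RPM in the pluripotent cells. These were grown on irradiated MEFs, and 5 fibroblast miRNAs summed to 57634 to 88217 RPM in MEFs and 38489 to 42723 in ESCs, while iPSCs had 11308 to 12637, NT-ESCs 31943 to 32410 and NT-iPSCs 32799 to 37390. None of the 5 was at 0 in any group, and the part of feeder RNA in the results was not tested. MEFs also held 106535 to 126933 RPM of 3 muscle miRNAs, against 489 to 2520 RPM elsewhere. The sum of 4 blood miRNAs was highest in the ESC libraries, at 1224 to 1490 RPM, against 200.3 to 225 RPM in MEFs. It was 533 to 546 RPM in iPSCs, 195 to 212 RPM in NT-ESCs and 443 to 454 RPM in NT-iPSCs. The 4 did not move together, since miR-223-3p had at most 3 reads in every ESC library. No blood miRNA was that low throughout another group, and none was at 0 in any group. The endothelial marker miR-126-3p was highest in ESCs as well (652 to 896 RPM, against 0.944 to 3.94 RPM in reprogrammed libraries), and the part of such cells in the falls from ESCs was not tested. Neural miRNAs (2) summed to 648 to 1992 RPM, with ESCs at 1309 to 1479 RPM. In such bulk samples, fewer cells of a type and less RNA per cell cannot be told apart.

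The members took 1.87% to 2.05% of all miRNA reads in ESC libraries and 1.13% to 2.74% in reprogrammed libraries. Every NT-ESC and NT-iPSC library lay below every ESC library. In reprogrammed cells a different miRNA dominated these reads, miR-92a-3p, whose reads cannot be assigned to a locus. In ESCs the 9 members held 1.98% ± 0.10 (SD, n = 3) of miRNA reads, and in MEFs 0.532% ± 0.030 (SD, n = 3). iPSCs had 2.26% ± 0.67 (SD, n = 2), NT-ESCs had 1.57% ± 0.03 (SD, n = 2) and NT-iPSCs had 1.41% ± 0.40 (SD, n = 2). With the 10 most abundant miRNAs left out of the total, these shares were 3.16% in ESCs, 1.30% in MEFs, 3.13% for iPSCs, 2.58% for NT-ESCs and 2.37% for NT-iPSCs. Of these cluster reads, miR-92a-3p made up 7.70% to 8.44% in the 3 ESC libraries and 6.46% to 10.2% in the 3 MEF libraries. In the 6 reprogrammed libraries it made up 83.3% to 91.8%. The 5p arms of miR-17, miR-18a and miR-20a together went the other way, with 81.3% to 82.7% in ESCs, 76.5% to 80.6% in MEFs and 3.94% to 8.69% in reprogrammed cells. The division of the cluster reads in ESCs was thus close to that in MEFs in these shares. Without miR-19b-3p and miR-92a-3p, which have a second locus, the other 7 members held 1.76% of miRNA reads in ESCs and 0.468% in MEFs. The same sum came to 0.176% for iPSCs, 0.198% for NT-ESCs and 0.105% for NT-iPSCs.

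**Figure D1:**
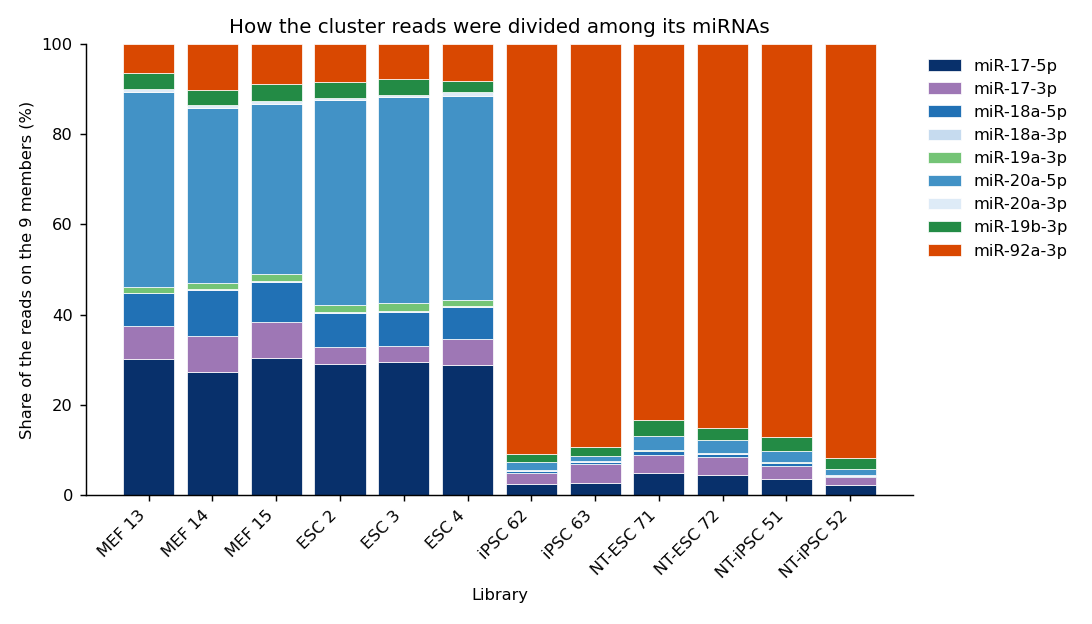
Share of the reads on the 9 members taken by each member (y axis, percent of the reads on the 9 members), with 1 bar per library and libraries ordered by cell type. miR-92a-3p (orange, top) fills 83.3% to 91.8% of each reprogrammed bar and 6.46% to 10.2% of each MEF or ESC bar, where miR-20a-5p and miR-17-5p are the widest segments.

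Members were compared between groups with limma on the VST values. Differences are in log2 units and were taken as the group named first less the other one, with p adjusted by Benjamini-Hochberg over 732 miRNAs. When the mean of the 3 reprogrammed types was set against ESCs, 9 of 9 members passed the threshold of 0.05, against 82% of all miRNAs tested. 8 fell and 1 rose, where 38% and 44% of all miRNAs tested were called lower and higher. Most miRNAs thus differed between these cells. The median difference of the members was -3.52 and their median absolute difference 3.52, against 0.24 and 2.00 for all miRNAs tested. 5 members were called lower by at least 3, as were 16% of all miRNAs tested.

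miR-17-5p and miR-20a-5p, the main guide strands of the AAAGUGC seed in this cluster, were abundant in ESCs and far lower in reprogrammed cells. miR-20a-5p stood at 8473, 9271 and 9296 RPM in ESCs and at 2235, 2202 and 1927 RPM in MEFs. In reprogrammed cells it stood at 461 and 197 RPM in iPSCs, 483 and 427 RPM in NT-ESCs, and 289 and 243 RPM in NT-iPSCs. No reprogrammed library reached the lowest MEF library, and by reads the miRNA ranked between 27 and 30 in ESCs and between 131 and 209 in reprogrammed cells. Its VST fell by 4.88 from ESCs to the reprogrammed mean (SE 0.19, limma adjusted p = 7.9e-10), a fold of 29.5, the largest difference among the members.

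miR-17-5p followed the same course. It stood at 5442, 5971 and 5885 RPM in ESCs, at 1569, 1546 and 1555 RPM in MEFs, and at 690 and 484 RPM in iPSCs, 776 and 696 RPM in NT-ESCs, and 398 and 362.6 RPM in NT-iPSCs. The groups of ESCs, MEFs and reprogrammed cells did not overlap. The VST of miR-17-5p fell by 3.52 from ESCs to the reprogrammed mean (SE 0.11, limma adjusted p = 1.3e-10), a fold of 11.5. Its order over cell types by mean VST was ESCs (17.08), MEFs (16.08), NT-ESCs (14.05), iPSCs (13.34) and NT-iPSCs (13.28), of which the last neighbours, iPSCs and NT-iPSCs, did not pass the test (difference -0.06, 95% interval -0.41 to 0.29). ESCs and MEFs, and NT-ESCs and iPSCs, did pass it, and MEFs and NT-ESCs, whose libraries did not overlap, were not tested against each other.

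miR-18a-5p, whose seed differs from that of miR-17-5p at 1 base, moved alongside them. It stood at 1395, 1547 and 1466 RPM in ESCs, at 374, 585 and 452 RPM in MEFs and between 57.8 and 151 RPM in the 6 reprogrammed libraries. The reprogrammed libraries lay below every MEF library, with a fall of 4.09 from ESCs (SE 0.14, limma adjusted p = 2.6e-10), a fold of 17.1.

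**Figure D2:**
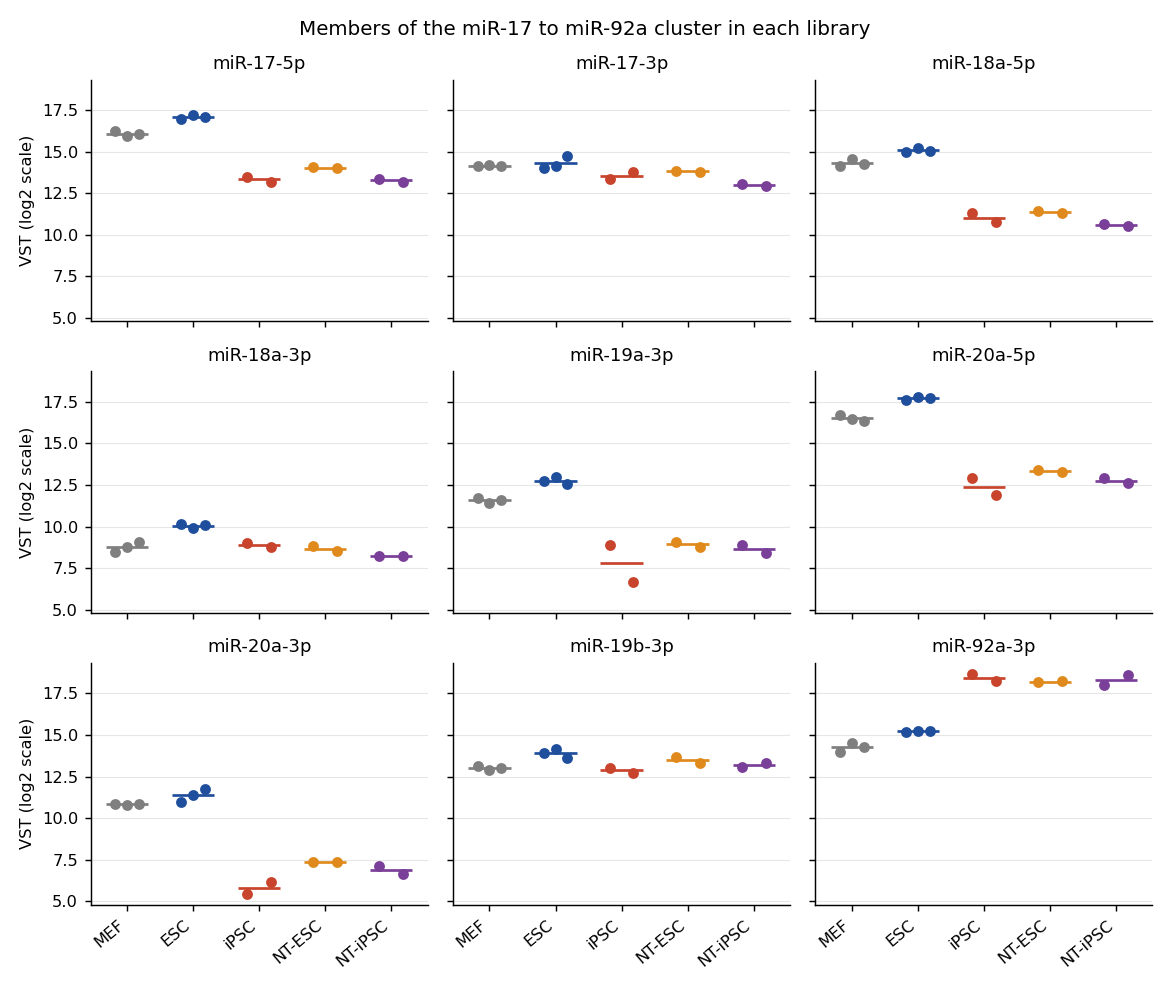
VST (y axis, log2 scale) of each member in each library, by cell type, with 1 point per library and a line at the mean of the group. In the panels of miR-17-5p, miR-18a-5p, miR-19a-3p, miR-20a-5p and miR-20a-3p the reprogrammed libraries lie below all MEF and ESC libraries, in the panel of miR-92a-3p they lie above, and in the panel of miR-19b-3p the groups lie close together.

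The miR-19 members share the seed GUGCAAA, and they separated from each other. miR-19a-3p stood at 287, 330 and 255 RPM in ESCs, 69.8, 65.7 and 70.4 RPM in MEFs, and 5.09 to 28.5 RPM in reprogrammed libraries, with the lowest value in iPSC replicate 63. miR-19b-3p stood at 665, 735 and 541 RPM in ESCs, 181, 186 and 189 RPM in MEFs, and 331 to 576 RPM in reprogrammed libraries. On the VST scale the reprogrammed mean was lower than ESCs by more for miR-19a-3p (difference -4.30, SE 0.38, limma adjusted p = 7.2e-07) than for miR-19b-3p (difference -0.72, SE 0.15, limma adjusted p = 0.000742). For miR-19b-3p the reprogrammed and ESC libraries overlapped on the VST scale, and the difference between the miR-19 members was not itself tested.

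miR-92a-3p, the last member of the transcript and the only one with the seed AUUGCAC, moved opposite to the rest. It stood at 1575, 1563 and 1662 RPM in ESCs and 335, 576 and 453 RPM in MEFs. In reprogrammed cells it stood at 24898 and 15943 RPM in iPSCs, 13236 and 13109 RPM in NT-ESCs, and 9822 and 15468 RPM in NT-iPSCs. Every reprogrammed library lay above every ESC and MEF library, and by reads miR-92a-3p ranked between 9 and 23 in reprogrammed libraries against 71 to 73 in ESCs. Its VST rose by 3.09 (SE 0.17, limma adjusted p = 9.5e-09), a fold of 8.53. The order by mean VST was iPSCs (18.45), NT-iPSCs (18.30), NT-ESCs (18.21), ESCs (15.23) and MEFs (14.27), and the 3 reprogrammed types did not pass the test between each other.

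The 3p arms of miR-17, miR-18a and miR-20a are usually the less loaded strands. miR-17-3p stood at 696, 741 and 1187 RPM in ESCs, 376, 448 and 410 RPM in MEFs, and 298 to 743 RPM in reprogrammed libraries. On the VST scale it fell by 0.85 from ESCs to the reprogrammed mean (SE 0.17, limma adjusted p = 0.000566), the smallest called fall after that of miR-19b-3p. miR-18a-3p fell by 1.44 (SE 0.17, limma adjusted p = 9.0e-06) from 38.5 to 47.1 RPM in ESCs to 11.2 to 30.2 RPM in reprogrammed libraries. miR-20a-3p fell by 4.68 (SE 0.22, limma adjusted p = 3.2e-09), from 83.7, 107 and 149 RPM in ESCs to 2.46 to 7.27 RPM, or 13 to 55 reads per library, in reprogrammed cells. Thus for miR-20a both arms fell by similar amounts, and for miR-17 and miR-18a the 5p arm fell by more than the 3p arm.

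**Figure D3:**
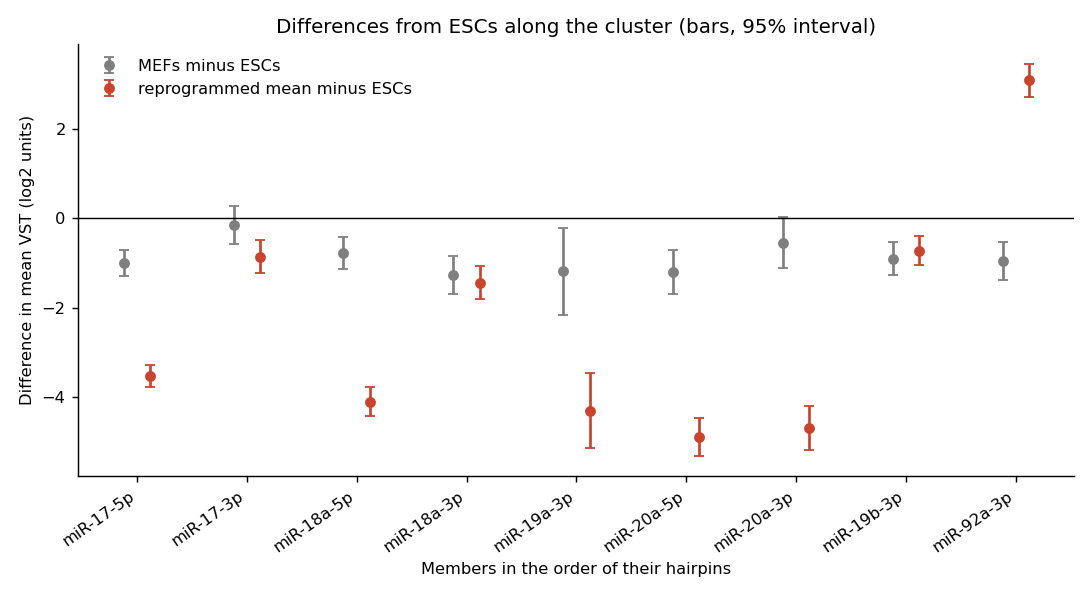
Difference in mean VST from ESCs (y axis, log2 units) for the 9 members in the order of their hairpins, for MEFs (grey) and for the mean of the reprogrammed types (red), with 95% intervals from limma. Both sets share the ESC libraries. The red points run from -4.88 for miR-20a-5p to 3.09 for miR-92a-3p and the grey points from -1.27 to -0.16, and the grey points of miR-17-3p and miR-20a-3p change sign under upper quartile scaling and are called lower under TMM-type and RPM scaling.

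The ratio of the arms of 1 hairpin within a library does not depend on how libraries are scaled. The log2 ratio of 5p to 3p reads of miR-17 (1 read added to each) was 2.97, 3.01 and 2.31 in ESCs and 2.06, 1.79 and 1.92 in MEFs. It was 0.16 and -0.62 in iPSCs, 0.27 and 0.21 in NT-ESCs, and 0.28 and 0.28 in NT-iPSCs, so that both arms were nearly equal in reads after reprogramming. The means of reprogrammed cells and ESCs differed by -2.67 (exact two-sided permutation test, n = 6 and 3, p = 0.0238, the smallest p that 84 arrangements can give, and 0.0536 after Benjamini-Hochberg adjustment over 9 tests). The adjusted value did not pass 0.05. The arm tests here and below treat libraries as independent, though the 6 are 2 RNA batches of each of 3 lines and the ESC libraries are batches of 1 line.

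For miR-18a the log2 ratio was 4.88 to 5.32 in ESCs, 5.20 to 5.81 in MEFs and 2.00 to 2.81 in reprogrammed libraries. Reprogrammed cells and ESCs differed by -2.65 (exact permutation p = 0.0238, adjusted 0.0536, n = 6 and 3), and the ranges did not overlap. For miR-20a it was 6.66, 6.43 and 5.96 in ESCs, 5.54 to 5.87 in MEFs and 5.70 to 7.45 in reprogrammed libraries, with a difference of -0.21 (exact permutation p = 0.714, n = 6 and 3). Against MEFs, reprogrammed cells were lower for miR-17 (MEFs minus reprogrammed 1.83) and miR-18a (3.14), each with an exact permutation p of 0.0238 and an adjusted value of 0.0536, and for miR-20a the difference was -0.44 (p = 0.0952). Between MEFs and ESCs 3 libraries against 3 cannot give a p below 0.1, and the differences were -0.84 for miR-17, 0.49 for miR-18a and -0.66 for miR-20a.

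**Figure D4:**
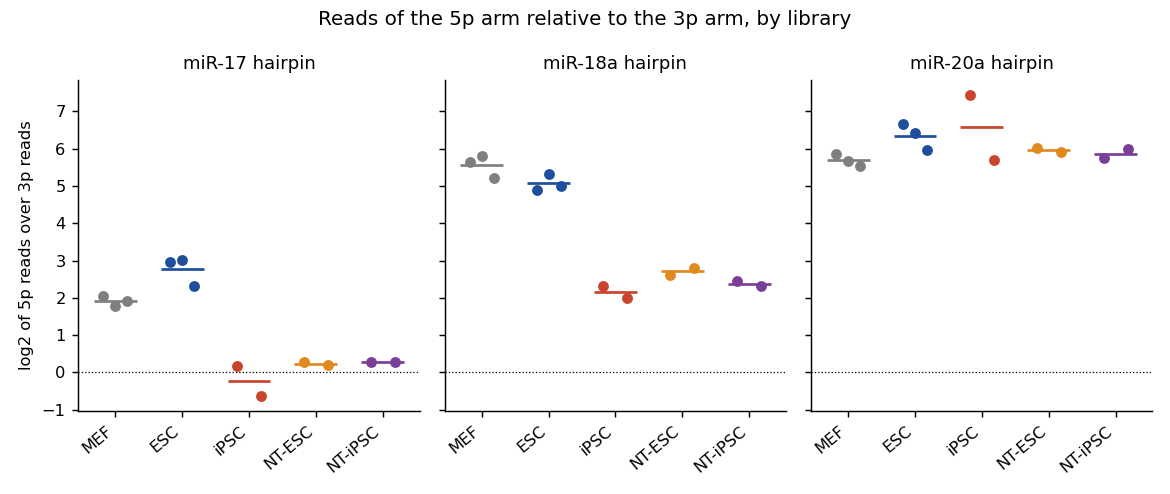
Log2 of 5p reads over 3p reads (y axis) for the hairpins of miR-17, miR-18a and miR-20a in each library, by cell type, with a line at the mean and a dotted line where both arms have equal reads. For miR-17 the 6 reprogrammed libraries lie between -0.62 and 0.28 and the ESC libraries between 2.31 and 3.01, and for miR-20a the groups overlap.

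MEFs held less of the cluster than ESCs. 7 of 9 members passed the test, all of them lower in MEFs, where 79% of all miRNAs tested were called and 39.9% were called lower. The median difference of the members was -0.96 (all miRNAs tested 0) and their median absolute difference 0.96 (all miRNAs tested 1.74). The called members were miR-17-5p (-0.996, SE 0.13, limma adjusted p = 2.9e-05), miR-18a-3p (-1.27), miR-20a-5p (-1.20), miR-19a-3p (-1.18), miR-92a-3p (-0.96), miR-19b-3p (-0.90) and miR-18a-5p (-0.78). miR-17-3p (-0.16, limma adjusted p = 0.467) and miR-20a-3p (-0.54, limma adjusted p = 0.0740) were not called, and neither result was stable. Both were called lower in MEFs under TMM-type scaling (-0.66 and -1.05) and under RPM scaling (-1.05 and -1.43), and both turned positive under upper quartile scaling. miR-20a-3p was also called lower under voom (-0.54) and without ESC replicate 2 (-0.75), and the call of miR-19a-3p was lost without MEF replicate 14 or 15 or ESC replicate 2 or 3.

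These small differences moved with the scaling. TMM-type scaling shifted the median of all miRNAs in MEFs against ESCs by -0.43, upper quartile scaling by 0.55 and scaling to RPM by -0.80. Under upper quartile scaling 3 members were called: miR-17-5p and miR-18a-3p stayed lower in MEFs, and miR-17-3p was higher by 0.48. The differences between reprogrammed cells and ESCs exceeded such shifts for the most changed members, since the same scalings moved that median by -0.16 to 0.20.

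MEFs and reprogrammed cells, the starting cells and their products, differed in 7 of 9 members, against 88.9% of all miRNAs tested. 6 members were higher and 1 lower in MEFs, where 40.4% and 48.5% of all miRNAs tested were. The higher ones were miR-20a-3p (4.13), miR-20a-5p (3.69), miR-18a-5p (3.32), miR-19a-3p (3.12), miR-17-5p (2.52) and miR-17-3p (0.70, turning to -0.31 under RPM scaling). miR-92a-3p was lower in MEFs by 4.05 on the log2 scale (difference -4.05, SE 0.17, limma adjusted p = 5.5e-10). miR-18a-3p (0.17) and miR-19b-3p (-0.18) were not called, and both depended on the scaling. miR-18a-3p was called higher in MEFs under upper quartile scaling (0.59) and lower under RPM scaling (-0.83). miR-19b-3p was called lower under TMM-type scaling (-0.52) and RPM scaling (-1.19) and stood at 0.24, uncalled, under upper quartile scaling. The call of miR-17-3p was lost under TMM-type scaling (0.36). Both guide strands of the AAAGUGC seed in this cluster were thus called higher in the fibroblasts than in the pluripotent cells made from them. Against ESCs both were called lower in the fibroblasts, a call that miR-20a-5p lost under upper quartile scaling (-0.56).

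Each reprogrammed type showed the same division against ESCs when taken alone. The test called 9 of 9 members in iPSCs (75.8% of all miRNAs tested), 7 of 9 in NT-ESCs (75.8%) and 9 of 9 in NT-iPSCs (77.6%). In each type 1 member, miR-92a-3p, was called higher, where 39.8%, 39.8% and 41.1% of all miRNAs tested were. The difference of miR-20a-5p from ESCs was -5.32 for iPSCs, -4.37 for NT-ESCs and -4.96 for NT-iPSCs, and that of miR-92a-3p was 3.22, 2.98 and 3.07. In NT-ESCs miR-17-3p (-0.50, limma adjusted p = 0.0521) and miR-19b-3p (-0.43, limma adjusted p = 0.0584) were not called, and both were called lower under TMM-type scaling (-0.64 and -0.56) and under voom. There miR-17-3p was also called without ESC replicate 2 (-0.66), and miR-19b-3p without ESC replicate 4 (-0.57). With 1 replicate left out, their differences in NT-ESCs ran from -0.66 to -0.28 for miR-17-3p and from -0.62 to -0.24 for miR-19b-3p. In iPSCs miR-17-3p lost its call under RPM scaling (-0.33) and without iPSC replicate 62 (-0.51), and in NT-iPSCs miR-19b-3p lost it under upper quartile scaling (-0.46) and without NT-iPSC replicate 51 (-0.59). These comparisons share the ESC libraries.

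Among the reprogrammed types the differences were smaller. NT-ESCs were higher than iPSCs in 3 members (25.7% of all miRNAs tested were called, 12.6% higher): miR-17-5p (0.71, SE 0.16, limma adjusted p = 0.00842), miR-20a-5p (0.95, SE 0.28, limma adjusted p = 0.0265) and miR-20a-3p (1.56, SE 0.32, limma adjusted p = 0.00462). With 1 library left out, the difference of miR-20a-5p ran from 0.44 to 1.47. Without iPSC replicate 63, or without NT-ESC replicate 71, 1 of these calls was left. NT-iPSCs were higher than iPSCs in 1 member, miR-20a-3p (1.06, limma adjusted p = 0.0298, 26.5% of all miRNAs tested called, 13.4% higher), a call lost under RPM scaling (0.54), under voom, with the 2 groups fitted alone, and without iPSC replicate 62 or NT-iPSC replicate 51. RPM scaling moved the median of all miRNAs in that comparison by -0.51, and under it 4 other members were called lower in NT-iPSCs: miR-17-5p (-0.61), miR-17-3p (-1.11), miR-18a-5p (-0.96) and miR-18a-3p (-1.19). NT-iPSCs were lower than NT-ESCs in 3 members (12.8% of all miRNAs tested called, 7.24% lower): miR-17-5p (-0.77, limma adjusted p = 0.0186), miR-17-3p (-0.81, limma adjusted p = 0.0467) and miR-18a-5p (-0.76, limma adjusted p = 0.0365). At most 1 of these 3 calls was left when any 1 of the 4 libraries was left out. With 2 libraries a group, none of these calls held in every alternative.

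The opposite arms of the other hairpins were measured at low levels except that of miR-92a. miR-92a-1-5p, cut from the cluster's own miR-92a hairpin, stood at 288, 305 and 248 RPM in ESCs, 53.8 to 68.0 RPM in MEFs and 542 to 843 RPM in reprogrammed libraries. It rose by 1.06 from ESCs to the reprogrammed mean (SE 0.16, limma adjusted p = 7.1e-05). miR-92a-2-5p, cut from the copy on chromosome X, stood at 235, 268 and 295 RPM in ESCs, 816 to 1431 RPM in reprogrammed libraries and 1 read in each MEF library. It rose by 1.86 (SE 0.14, limma adjusted p = 2.1e-07). Both hairpins that can give miR-92a-3p thus had more reads on their 5p arm after reprogramming, and in MEFs, with 2886 to 4528 reads of miR-92a-3p, the 5p arm of the second copy was at 1 read.

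For miR-19, miR-19a-5p was at 0, 0 and 1 reads in MEFs, 3 to 5 reads in ESCs and 41 to 85 reads in reprogrammed libraries, and its VST rose by 3.29 (SE 0.52, limma adjusted p = 0.000106) while its partner miR-19a-3p fell. miR-19b-1-5p ran from 29 to 78 reads in ESCs, from 17 to 24 in MEFs and from 0 to 24 in reprogrammed libraries, and was called lower (difference -3.39, SE 0.68, limma adjusted p = 0.000712). By type the difference was -5.39 in iPSCs, with 6 and 0 reads, -2.79 in NT-ESCs and -1.98 in NT-iPSCs, the last not called (limma adjusted p = 0.0584). miR-19b-2-5p, from chromosome X, ran from 58 to 90 reads in ESCs and from 1 to 6 in reprogrammed libraries and had 0 reads in MEFs. It was called lower too (difference -4.79, limma adjusted p = 9.0e-07). Of the 5 opposite arms, 3 were called higher and 2 lower, beside 44% and 38% of all miRNAs tested.

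Relatives of the members lie in the miR-106a to miR-363 cluster on chromosome X and the miR-106b to miR-25 cluster on chromosome 5, which arose with this cluster from a common ancestor. Their seeds show how far the division extended beyond the cluster. Among the tested miRNAs with a reference sequence (549 of 732), 6 carry the seed AAAGUGC and 6 the seed AUUGCAC. miR-93-5p and miR-25-3p, from the same transcript on chromosome 5, are printed as the most abundant relatives.
miR-93-5p: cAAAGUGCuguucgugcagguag
miR-25-3p: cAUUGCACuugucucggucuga
The AAAGUGC group holds miR-17-5p, miR-20a-5p, miR-20b-5p, miR-93-5p, miR-106a-5p and miR-106b-5p, and all 6 were called lower in reprogrammed cells than in ESCs (38% of all miRNAs tested), by differences of -4.88 to -3.01. Outside the cluster these were miR-20b-5p (-3.37), miR-106b-5p (-3.16), miR-106a-5p (-3.14) and miR-93-5p (-3.01). Summed over the 6, the seed took 43352 ± 1819 RPM (SD, n = 3) in ESCs, 7617 ± 520 RPM (SD, n = 3) in MEFs and 4652 ± 1036 RPM (SD, n = 6) in reprogrammed cells. miR-18b-5p, the relative of miR-18a-5p, was lower too (-2.28, SE 0.19, limma adjusted p = 4.5e-07).

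The AUUGCAC group was divided. miR-92a-3p (3.09), miR-25-3p (4.20, SE 0.15, limma adjusted p = 3.5e-10) and miR-92b-3p (3.70) were called higher in reprogrammed cells. miR-32-5p was called lower (-2.13), and miR-363-3p (-0.26, limma adjusted p = 0.118) and miR-367-3p (-0.40, limma adjusted p = 0.188) were not called in the mean of the 3 types. Taken by type, miR-367-3p was called higher than ESCs in iPSCs (1.01) and lower in NT-ESCs (-1.09) and NT-iPSCs (-1.12), and miR-363-3p was called lower in iPSCs (-0.58) and not in NT-ESCs (0.08) or NT-iPSCs (-0.27). miR-25-3p stood at 1178, 1330 and 1518 RPM in ESCs, 368 to 472 RPM in MEFs and 17289 to 32146 RPM in reprogrammed libraries, so that it and miR-92a-3p carried most of the seed. Summed over the 6, the seed took 4338 ± 421 RPM (SD, n = 3) in ESCs, 924 ± 71.5 RPM (SD, n = 3) in MEFs and 44877 ± 9376 RPM (SD, n = 6) in reprogrammed cells. The seed AAAGUGC was the more abundant of the pair in every ESC and MEF library and AUUGCAC in every reprogrammed library.

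**Figure D5:**
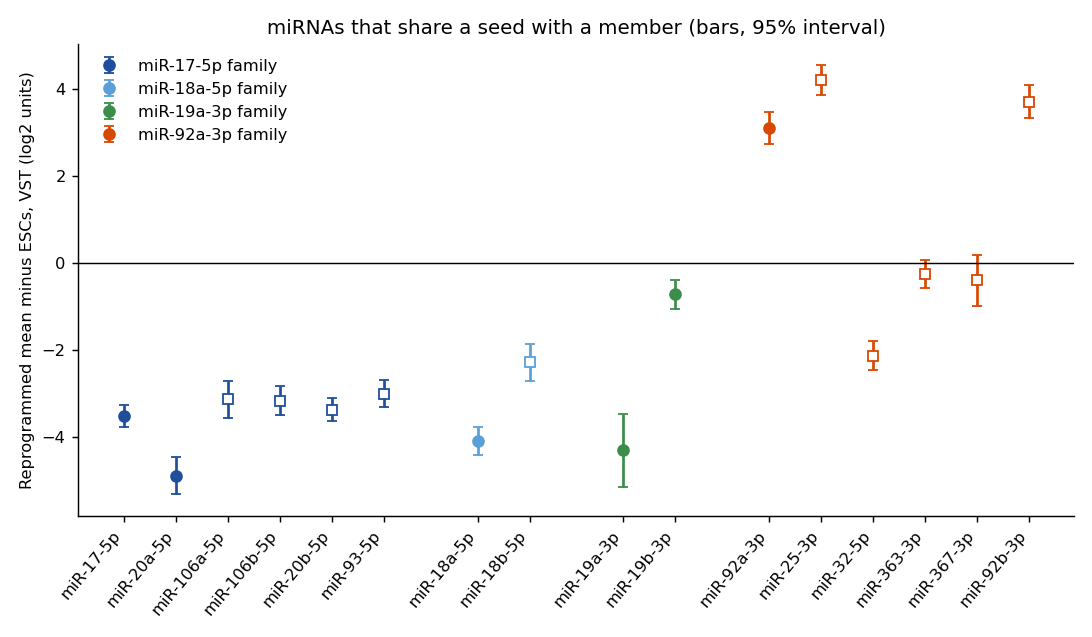
Difference in mean VST between the reprogrammed mean and ESCs (y axis, log2 units) for tested miRNAs that share a seed with miR-17-5p, miR-18a-5p, miR-19a-3p or miR-92a-3p, with 95% intervals from limma. Filled circles are members of the cluster and open squares are miRNAs from elsewhere. All miRNAs of the miR-17-5p family lie between -4.88 and -3.01, and those of the miR-92a-3p family run from -2.13 to 4.20.

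By cluster, 7 of 8 tested miRNAs of the miR-106a to miR-363 cluster were called in reprogrammed cells against ESCs, 4 higher and 3 lower, and 6 of 6 of the miR-106b to miR-25 cluster, 3 higher and 3 lower. Of all miRNAs tested 82% were called, 44% higher and 38% lower, so these counts were near that background. Of the 3p arms with the seed of miR-17-3p, CUGCAGU, miR-106a-3p (5.91) and miR-20b-3p (0.63) were called higher while miR-17-3p was called lower (-0.85). The libraries of miR-20b-3p overlapped with ESCs, and by type it was not called in iPSCs (0.24), as miR-17-3p was not in NT-ESCs. miR-106a-3p had 1 to 3 reads per library in ESCs and 136 to 274 in reprogrammed cells. In MEFs against ESCs all 8 and all 6 miRNAs of these clusters were called lower (39.9% of all miRNAs tested), with median differences of -7.66 and -1.43, beside -0.96 for the miR-17 to miR-92a cluster. miR-106a-3p, miR-18b-3p and miR-20b-3p had 0 reads in every MEF library, so the lowest VST value limits their differences. That of miR-20b-3p (-7.37) enters the median of -7.66. In MEFs miR-106a-5p, the first member of the cluster on chromosome X, had 19 to 32 reads per library, while miR-17-5p had 12166 to 13509 reads.

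Over the 12 libraries, the miRNAs whose VST ran most like that of miR-17-5p were miR-20a-5p (Pearson r = 0.995), miR-18a-5p (0.990), miR-425-5p (0.990), miR-126-5p (0.989) and miR-146b-5p (0.981). Those most like miR-92a-3p were miR-323-3p (0.993), miR-543-3p (0.989) and miR-466i-3p (0.988), none of them a member. The r between miR-17-5p and miR-92a-3p was -0.90. The 12 points fall into 5 cell types with shared libraries and scaling, so these values only describe likeness. miR-126-5p comes from the hairpin of the endothelial marker miR-126-3p, given above, which stood at 112 to 136 RPM in MEFs.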

How the data were processed

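Values for 12 small RNA libraries were deposited by the authors as 1 table of 1042 miRNAs on a log2 scale: reads cleaned of adaptors and low quality tags, annotated, normalized with DESeq and variance stabilized (VST), per the labels and the methods. Build mm8 is named in the submitters' processing notes. The VST was inverted to reads, which were whole within 0.05 read for 100% of nonzero values (largest deviation 0.00347). The values are no counts, so limma (3.58.1, R 4.3.3; 5 group means, empirical Bayes with a trend) was run on the VST, over 732 miRNAs that reached 10 reads in 2 or more libraries. Named miRNAs were the members, the opposite arms, the 2 related clusters, miRNAs sharing a seed, and the 5 and 3 most like miR-17-5p and miR-92a-3p. The members, named without use of a value, and the lists were proposed with earlier results of these data known. Alternatives were 3 scalings, log2 with a pseudocount of 1, voom, other filters, fits of the compared groups alone, a required difference of 1, and leaving out each replicate. Summaries and figures used scipy 1.17.1, pandas 2.3.3, numpy 2.4.6 and matplotlib 3.10.9 under Python 3.11.15.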

Additional observations from a re-analysis of the deposited data

Results flagged for a closer look

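Among the 6 reprogrammed libraries, 12 sets of values (9 members and 3 arm ratios) were examined for a library far from the rest. The measure was the gap to its neighbour over the whole range, with a limit of 0.625. For 6 independent values of 1 normal distribution, chance passes that limit in about 1 set in 20. The 6 libraries are 2 of each of 3 lines, so that rate need not hold here. miR-19a-3p in iPSC replicate 63 had a VST of 6.66 where the other libraries lay between 8.39 and 9.09. The log2 arm ratio of miR-17 was -0.62 in iPSC replicate 63, and that of miR-20a was 7.45 in iPSC replicate 62. Each of the 3 values came from an iPSC library, and for miR-20a-5p iPSC replicates 62 and 63 had a VST of 12.92 and 11.89.

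Members were also called between lines reprogrammed by different routes, none of them under every alternative. The calls against iPSCs were lost with the 2 groups fitted alone, and with 1 library left out at most 1 call was left between NT-iPSCs and NT-ESCs. NT-ESCs exceeded iPSCs by 0.71 for miR-17-5p, 0.95 for miR-20a-5p and 1.56 for miR-20a-3p, with limma adjusted p from 0.00462 to 0.0265. NT-iPSCs exceeded iPSCs by 1.06 for miR-20a-3p. NT-iPSCs minus NT-ESCs gave -0.77 for miR-17-5p, -0.81 for miR-17-3p and -0.76 for miR-18a-5p. Each group here is 2 RNA batches of 1 line, so route and line cannot be told apart.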

How the results depend on the processing

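The call of all 9 members in reprogrammed cells against ESCs, with the direction of each, held under the scalings, filters, transformations and left-out replicates that were run, and 7 of 9 had a difference of at least 1. For MEFs against reprogrammed cells the count stayed at 7 whichever replicate was left out. For MEFs against ESCs it was 9 under TMM-type and RPM scaling, where miR-17-3p and miR-20a-3p gained a call as lower (-0.66 and -1.05, and -1.05 and -1.43), 3 under upper quartile scaling and 3 with a minimum difference of 1, and 6 to 7 without 1 replicate, where miR-19a-3p lost its call without MEF replicate 14 or 15 or ESC replicate 2 or 3. In that comparison miR-17-3p turned to 0.48 and miR-20a-3p to 0.093 under upper quartile scaling, and miR-17-3p to 0.069 without ESC replicate 4. In MEFs against reprogrammed cells, miR-18a-3p turned to -0.17 under TMM-type and -0.83 under RPM scaling, the latter called, and miR-19b-3p was called at -0.52 and -1.19 under these but turned to 0.24 under upper quartile scaling, where miR-18a-3p was called at 0.59, and miR-17-3p turned to -0.31 under RPM scaling. For single reprogrammed types against ESCs, 9 of 9 became 8 for iPSCs under RPM scaling and 8 for NT-iPSCs under upper quartile scaling, and 7 of 9 became 9 for NT-ESCs under TMM-type scaling or voom. Counts for NT-ESCs against iPSCs were 1 under RPM scaling, 0 with only the groups compared, 1 with a minimum difference of 1, and 1 to 4 without 1 replicate. For NT-iPSCs against iPSCs they were 2 under TMM-type scaling, 4 under RPM scaling, 0 under voom, 2 with a filter of 100 reads throughout a group, 0 with only the groups compared, and 0 to 2 without 1 replicate. The call of miR-20a-3p itself was lost under RPM scaling (0.54), so the 4 calls there, all lower in NT-iPSCs, were of other members, and likewise the 2 without iPSC replicate 62. For NT-iPSCs against NT-ESCs they were 0 with a minimum difference of 1 and 0 to 1 without 1 replicate, and miR-17-3p lost its call with no filter on low reads, as did miR-18a-5p with only the groups compared. Arm ratio differences without 1 replicate ran from -2.89 to -2.52 (miR-17) and -2.74 to -2.52 (miR-18a) for reprogrammed cells against ESCs, and from 1.68 to 1.89 and 3.01 to 3.31 for MEFs against reprogrammed cells. Without an ESC or MEF library the smallest exact permutation p for these is 0.0714. The cause of these changes was not tested, apart from that limit. No paired analysis was possible because the groups carry different replicate numbers. The tests made for counts, edgeR and DESeq2, were not run.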
